A study of Mus musculus with 8 samples.

Results

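Mitochondria keep their own set of proteases, which remove damaged or unassembled proteins and cut selected proteins at defined sites. Those of the matrix (LONP1 and the CLPX-CLPP pair) and the AAA proteases of the inner membrane use ATP to pull substrates apart, while OMA1 and HTRA2 work without it. Prohibitins form large rings in the inner membrane that hold lipids and proteins in place and bind the matrix-facing AAA protease. In muscle fibres, which are rich in mitochondria, loss of several of these proteins is known to disturb respiration, and in nematodes and cultured mammalian cells some of their genes are induced when protein folding in mitochondria fails.

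The genes described here are Lonp1, Clpp, Clpx, Afg3l2, Spg7, Yme1l1, Oma1, Htra2, Phb and Phb2. They were taken by name, and an array probe was counted when its transcript accession belonged to one of them. That gave 10 genes and 13 probes, of 20972 named genes and 55681 probes on the array. Htra2, Phb and Phb2 have 2 probes each and the other 7 genes have 1. All 13 probes were well above background in 8 of 8 samples and saturated in 0, so all 10 genes are among the 11453 tested.

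The samples are 4 mice homozygous for a mutant Pus1 gene and 4 Pus1 wild type mice, all C57BL/6J after 5 generations of backcrossing and aged 14 to 16 weeks. The tissue is the red part of the gastrocnemius, a calf muscle. Pus1 encodes pseudouridine synthase 1, which modifies uridines in cytosolic and mitochondrial tRNAs, and the series title calls the mutant a knockout, while the labels do not describe the allele. Each of 4 two-colour arrays, all on 1 slide, held 1 mutant and 1 wild type mouse of the same sex, males on arrays 1 and 2 and females on arrays 3 and 4, with the mutant in Cy5 on arrays 1 and 3 and in Cy3 on arrays 2 and 4. RNA came from whole tissue, so fewer cells of a type and less RNA per cell cannot be told apart. Levels below are log2 brightness of a probe in a sample after normalization, and a change is the mutant over wild type log2 ratio with its standard error (SE) over the 4 arrays. The series' design text calls the mice biological replicates. The SE and p-value of a change rest on the spread over the 4 pairs that remains once a term for dye orientation is fitted. This spread is moderated by limma with that of all other genes. The fit had 2 residual and 3.22 prior degrees of freedom per gene, or 1 and 6.05 for the difference between the male and the female change.

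The share of probes that the scanner marked as above background ran from 39.8% to 42.5% in mutants and from 39.7% to 47.3% in wild types. Pus1 had log2 levels of 6.74, 6.88, 6.60 and 7.12 in mutants 1 to 4, against 8.69, 8.42, 8.72 and 9.13 in wild types 1 to 4, with means of 6.83 in mutants and 8.74 in wild types and a change of -1.90 ± 0.10 (SE, limma adjusted p = 0.0454). The Pus1 probe cleared that mark in 0 of 4 mutants (not well above background) and in 4 of 4 wild types, so Pus1 was at least 3.57-fold lower in mutants, from the wild type mean and, per mutant, the higher of its own signal and the lowest signal above background. The call was lost with any 1 pair left out, with the change between -2.02 and -1.78, and also with the log ratio as the scanner gave it (-3.87, adjusted p = 0.114) and with the authors' deposited table (-3.83, adjusted p = 0.164). The muscle list (10 of 10 markers such as Acta1 and Ckm tested) had mean log2 levels of 17.22 to 17.68 in mutants and 17.00 to 17.71 in wild types. Of other cell types, erythroid markers had the largest median change, 0.80 over 7 of 7 genes tested with 6 higher and 0 called, and mean log2 levels of 11.00, 11.29, 11.93 and 13.44 in mutants 1 to 4, against 11.12, 11.10, 10.72 and 12.01 in wild types 1 to 4. Per erythroid gene the change was -0.055 to 0.19 in males and -0.0079 to 1.82 in females, and the difference between the sexes passed for 5 of the 7 genes. Medians were 0.035 for adipocyte markers (5 of 8 tested, Adipoq, Plin1 and Lep below the filter), -0.039 for macrophage markers (6 of 8) and -0.0087 for endothelial markers (7 of 7). The part of these cells in the values below was not tested.

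The promoters of the 2 prohibitin genes are shown because their products form 1 ring. The windows are RefSeq sequence of build GRCm38.p6, from 250 bases before to 50 after the start of the gene, read 5′ to 3′ on the plus strand, at chr11:95666707-95667006 for Phb and chr6:124712039-124712338 for Phb2. Capitals mark matches, on either strand, to ACTACAANT, the core of an element bound by the factor ZNF143, and to CCAAT, the CCAAT box.
Phb: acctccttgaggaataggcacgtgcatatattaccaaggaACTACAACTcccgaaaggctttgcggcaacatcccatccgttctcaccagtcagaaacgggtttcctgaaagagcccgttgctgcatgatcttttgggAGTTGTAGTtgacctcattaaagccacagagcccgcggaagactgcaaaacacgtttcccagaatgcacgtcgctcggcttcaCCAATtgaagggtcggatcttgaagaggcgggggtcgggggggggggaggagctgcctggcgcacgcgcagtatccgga
Phb2: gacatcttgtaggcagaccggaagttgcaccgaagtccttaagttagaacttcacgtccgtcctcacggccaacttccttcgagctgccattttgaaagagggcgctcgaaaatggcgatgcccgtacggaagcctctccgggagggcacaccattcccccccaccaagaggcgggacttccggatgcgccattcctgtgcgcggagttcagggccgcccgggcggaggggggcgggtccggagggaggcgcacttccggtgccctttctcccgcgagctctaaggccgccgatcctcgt
The Phb window holds 2 matches to the first motif, at bases 41 and 139, and 1 CCAAT box at base 222. The Phb2 window holds neither. Of all 32851 promoter windows, 1.49% hold the first motif and 37.4% a CCAAT box. The motifs were chosen after the promoters were seen, so these shares do not test the matches. Of the 8 genes whose window was searched (Htra2 and Afg3l2 were not), only Phb holds the first motif. Clpx and Yme1l1 also hold a CCAAT box. TGATGNAA, the element bound by C/EBP and ATF factors in stress responses, was in 0 of these 8 windows and in 3.97% of all windows. With a share that low, 0 of 8 does not set these windows apart. A match is a run of letters, binding was not measured, and a link between the motifs and the levels below was not tested.

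None of the 10 genes changed in mutant muscle by limma (0 genes at an adjusted p under 0.05 and 0 at an unadjusted p under 0.05), and neither did any of the 13 probes (0 called over all probes). Over all genes tested, 0.0175% were called and 5.87% had an unadjusted p under 0.05. Over all 21146 probes tested 0 were called. With shares this low, counts of 0 set neither these 10 genes nor these 13 probes apart. Changes ran from -0.16 for Phb to 0.075 for Clpp, with 3 genes higher and 7 lower, and adjusted p from 0.719 to 0.986. Their median was -0.012, against 0.012 over all genes tested, and their median absolute change was 0.033, against 0.074. The SE had a median of 0.077 for these genes and 0.081 for all. The 95% intervals of the 10 changes together reach down to 0.753-fold, for Phb, and up to 1.19-fold, for Clpx. With no dye term in the fit they reach from 0.696-fold to 1.32-fold. The mutant and wild type samples overlapped in level for all 10 genes, where 1.21% of all genes had groups that did not overlap.

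**Figure D1:**
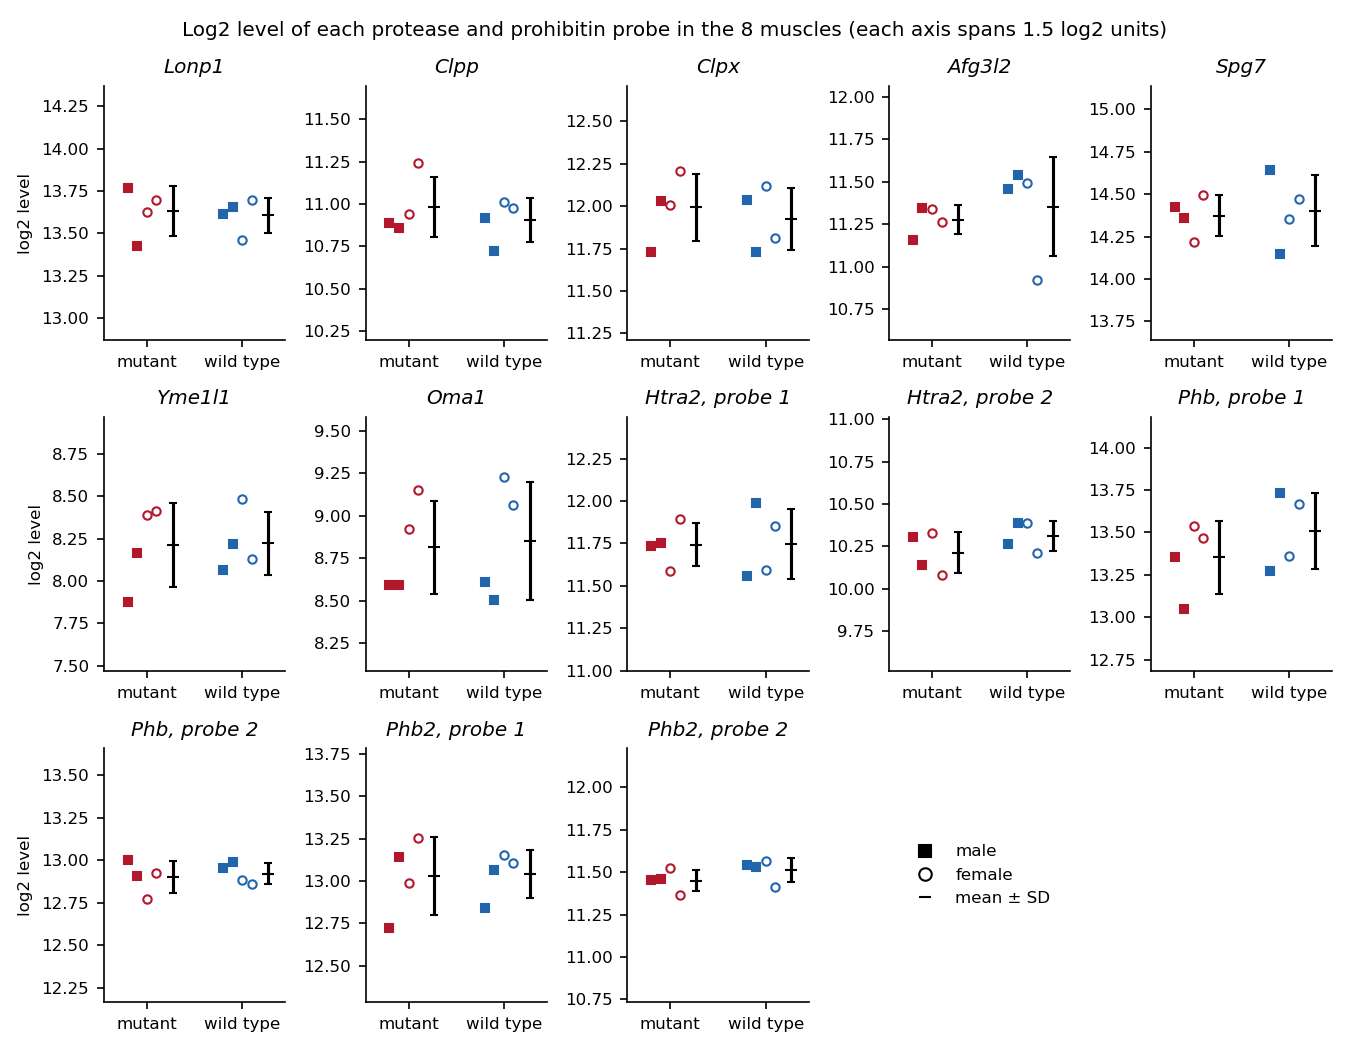
Log2 level of each of the 13 probes in the mutant (left, red) and wild type (right, blue) muscles, with filled squares for males, open circles for females and a black bar for mean ± SD (n = 4 each). Each axis spans the same log2 range around the probe's mean, and the groups overlap in every panel.

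Among the matrix proteases, Lonp1 encodes the ATP-dependent protease that degrades oxidised and misfolded matrix proteins. It had log2 levels of 13.77, 13.43, 13.63 and 13.70 in mutants 1 to 4, against 13.62, 13.65, 13.46 and 13.70 in wild types 1 to 4. The mutants enclosed all wild types, with the lowest value in mutant 2 and the highest in mutant 1. The change was 0.023 ± 0.074 (SE, limma adjusted p = 0.947), and its 95% interval of 0.892-fold to 1.16-fold was centred near no change.

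Clpp encodes the barrel-shaped peptidase and Clpx the ATP-driven unfoldase that feeds it. Clpp had log2 levels of 10.89, 10.86, 10.94 and 11.24 in mutants 1 to 4, against 10.92, 10.72, 11.01 and 10.98 in wild types 1 to 4. Clpx had log2 levels of 11.73, 12.03, 12.00 and 12.21 in mutants 1 to 4, against 12.03, 11.73, 12.12 and 11.81 in wild types 1 to 4. For both genes the highest mutant was mutant 4, and on each array the sample in Cy3 was higher than the one in Cy5. The changes were 0.075 ± 0.069 for Clpp and 0.069 ± 0.073 for Clpx (SE, limma adjusted p = 0.797 and 0.828). Both were positive under all 12 alternative settings, from 0.042 to 0.13 for Clpp and from 0.022 to 0.12 for Clpx, and neither passed the test under any of them.

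Of the inner membrane AAA proteases, Afg3l2 and Spg7 encode the subunits of the matrix-facing enzyme, which matures the ribosomal protein MRPL32, and Yme1l1 encodes the one that faces the intermembrane space and cuts the fusion protein OPA1. Afg3l2 had log2 levels of 11.16, 11.34, 11.34 and 11.26 in mutants 1 to 4, against 11.46, 11.54, 11.49 and 10.92 in wild types 1 to 4. Wild type 4 was lowest of all 8 samples, and the other 3 wild types were above all 4 mutants. The ratios were -0.30, -0.20, -0.15 and 0.34 on arrays 1 to 4, and the change was -0.076 ± 0.11 (SE, limma adjusted p = 0.878). Without pair 4 it was -0.21 (adjusted p = 0.556), and without pair 2 it was 0.060 (adjusted p = 0.994).

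Spg7, the partner subunit of Afg3l2, did not differ either, at -0.029 ± 0.073 (SE, limma adjusted p = 0.931). Its log2 levels were 14.43, 14.36, 14.22 and 14.49 in mutants 1 to 4, against 14.64, 14.15, 14.35 and 14.47 in wild types 1 to 4, so the wild types span the wider range and enclose all mutants. Yme1l1 had log2 levels of 7.88, 8.17, 8.39 and 8.41 in mutants 1 to 4, against 8.06, 8.22, 8.48 and 8.13 in wild types 1 to 4. Its change was -0.011 ± 0.085 (SE, limma adjusted p = 0.978), and mutant 4 exceeded its paired wild type where mutants 1 to 3 did not.

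The ATP-independent proteases are Oma1, a stress-activated enzyme that cuts OPA1 and the stress relay protein DELE1, and Htra2, a serine protease of the intermembrane space whose loss causes neurodegeneration in mice. Oma1 had log2 levels of 8.59, 8.59, 8.92 and 9.15 in mutants 1 to 4, against 8.61, 8.50, 9.23 and 9.06 in wild types 1 to 4. The genotypes overlapped, and in each genotype samples 1 and 2, the males, were below samples 3 and 4, the females. The genotype change was -0.037 ± 0.079 (SE, limma adjusted p = 0.923). The change of Htra2 was -0.0062 ± 0.083 (SE, limma adjusted p = 0.986) on probe A_55_P1973699, with log2 levels of 11.59 to 11.90 in mutants and 11.56 to 11.99 in wild types. Its other probe, A_55_P1973698, gave -0.099 ± 0.070 (SE, adjusted p = 0.749 over all probes).

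The prohibitin genes Phb and Phb2 encode the alternating subunits of the ring. On probe A_55_P2145908 Phb had log2 levels of 13.35, 13.05, 13.54 and 13.47 in mutants 1 to 4, against 13.27, 13.73, 13.36 and 13.67 in wild types 1 to 4. The lowest sample, mutant 2, and the highest, wild type 2, shared array 2. The ratios were 0.079, -0.68, 0.18 and -0.20 on arrays 1 to 4, and the change of -0.16 ± 0.10 (SE) was the largest in size among the 10 genes and did not pass (limma adjusted p = 0.719). Without pair 2 it was -0.035, and its 95% interval with all pairs ran from 0.753-fold to 1.07-fold. Probe A_51_P165934 of the same gene gave log2 levels of 13.00, 12.91, 12.77 and 12.93 in mutants 1 to 4, against 12.96, 12.99, 12.88 and 12.86 in wild types 1 to 4. Its change was -0.020 ± 0.074 (SE, adjusted p = 0.954 over all probes), so the low value of mutant 2 was not seen there.

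Phb2 had log2 levels of 12.72, 13.14, 12.99 and 13.26 in mutants 1 to 4, against 12.84, 13.06, 13.16 and 13.10 in wild types 1 to 4, on probe A_66_P126523. Its change was -0.014 ± 0.067 (SE, limma adjusted p = 0.964), with the mutants enclosing all wild types. Probe A_55_P2157019 was lower in the mutant on 4 of 4 arrays, with ratios of -0.089, -0.072, -0.046 and -0.045, and its change of -0.063 ± 0.066 (SE, adjusted p = 0.826 over all probes) did not pass. A single sign on all 4 arrays was seen for 10.4% of all genes and for 0 of the 10 genes on the probes that represent them.

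**Figure D2:**
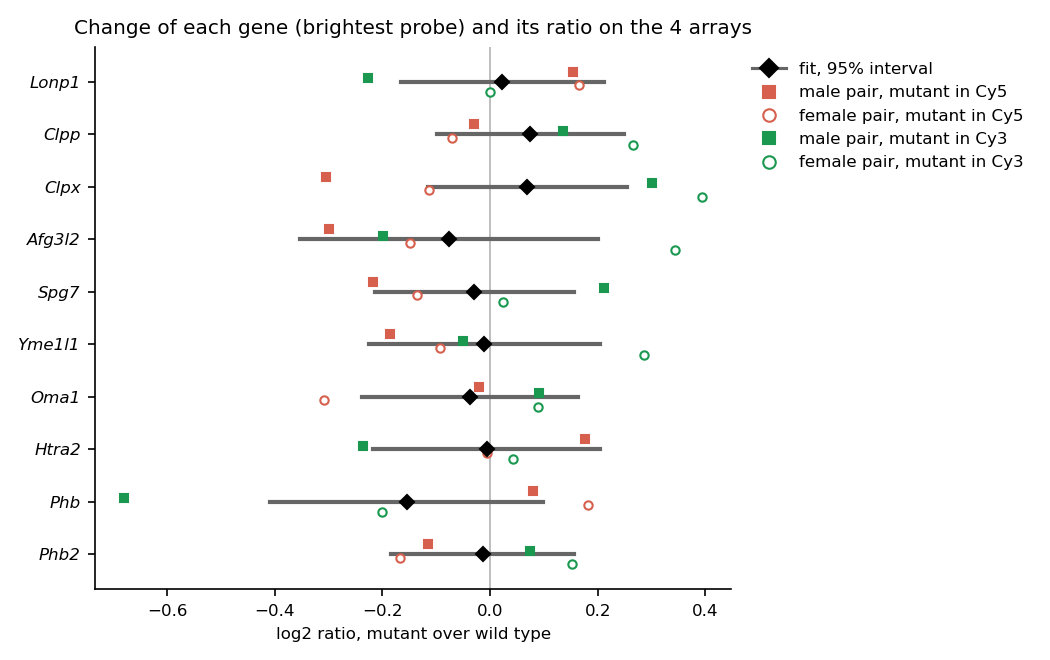
Log2 ratio of mutant over wild type for each gene on its brightest probe, with the fitted change (black diamond), its 95% interval (grey line) and the ratios on the 4 arrays, coloured by the dye of the mutant (red Cy5, green Cy3), squares for male and open circles for female pairs. Every interval crosses 0, and for Clpx the green ratios (0.30 and 0.39) lie above 0 and the red ones (-0.30 and -0.11) below it.

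The ratios of these genes varied more with the dye orientation of the array than with genotype. Each orientation lay on its own pairs of mice, so differences between pairs can enter the dye term, which was not tested. The dye term, the amount by which a ratio moved with the mutant in Cy5, was larger in size than the genotype change for 10 of the 10 genes, and for 62.7% of all genes. Its median size was 0.13 for these genes and 0.12 for all, while that of the genotype change was 0.033 and 0.074. The sign of the ratio followed the dye on all 4 arrays for 7 genes, against 30.0% of all genes. Of these, Clpp, Clpx, Spg7, Oma1 and Phb2 were higher in the Cy3 sample of every array, and Lonp1 and Phb in the Cy5 sample. Each genotype had 2 samples in each dye, so the change itself was the same with and without this term in the fit. The term altered the SE, which for Phb was 0.10 with it and 0.15 without it.

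The 3 genes with 2 probes show how far sample-to-sample differences carried over from probe to probe. Across the 8 samples the log2 levels of the 2 probes correlated at Pearson r = -0.28 for Htra2, -0.11 for Phb and -0.30 for Phb2. Over the 2579 genes with at least 2 tested probes the median r was 0.38, and 23.7% were below 0. The SD of the log2 level over all 8 samples ran from 0.12 for Lonp1 to 0.29 for Oma1, with a median of 0.178 against 0.183 over all genes.

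Subunits of 1 enzyme were compared in level across the 8 samples, as a description, since samples of an array share a hybridisation and the dye. Clpp and Clpx correlated at r = 0.73, which placed Clpx at rank 1183 among 11452 genes by likeness to Clpp. Phb and Phb2 correlated at r = 0.13, with Phb2 at rank 5260 by likeness to Phb. Afg3l2 and Spg7 correlated at r = -0.33, with Spg7 at rank 7905 by likeness to Afg3l2. The 2 probes of Phb correlated at r = -0.11 and those of Phb2 at -0.30, so the r of 0.13 need not describe the transcripts. The gene most like each was Phf5a for Clpp (r = 0.97), Morc3 for Clpx (0.98), Mcf2l for Phb (0.98), 2310030G06Rik for Phb2 (0.97), Fads1 for Afg3l2 (0.95) and Gpbp1l1 for Spg7 (0.97). The gene next in order reached r of 0.94 to 0.97 in each case.

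The genotype change was set against sex, since each sex had 2 pairs with the dyes exchanged. The difference between the male and the female change did not pass for any of the 10 genes (0 by limma, 0 at an unadjusted p under 0.05, adjusted p from 0.441 to 0.984). Over all genes 3.89% passed and 12.7% had an unadjusted p under 0.05. It was largest in size for Afg3l2, with a change of -0.25 in males and 0.098 in females and a 95% interval of the difference from -0.73 to 0.031 (adjusted p = 0.441). For Phb the changes were -0.30 in males and -0.010 in females (adjusted p = 0.532). Neither difference can be told from no difference with 2 pairs per sex.

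Oma1 differed in level between the male and the female arrays. After the levels had been seen, the mean level of each array was compared between male and female arrays over all genes, 2 arrays against 2. Oma1 was at 8.59, 8.59, 8.61 and 8.50 in the 4 males (mutants 1 and 2, wild types 1 and 2), against 8.92, 9.15, 9.23 and 9.06 in the 4 females, with no overlap. The male minus female difference was -0.52 ± 0.12 (SE, limma adjusted p = 0.0219), relative to a median of -0.053 over all genes. It was -0.44 within mutants (adjusted p = 0.356) and -0.59 within wild types (adjusted p = 0.196), so neither genotype alone passed. With no quantile step between arrays, 6 of the 10 genes passed, where 36.9% of all genes passed and their median was -0.29, and Oma1 relative to the median was at -0.46 under both scalings. Oma1 was the 1 gene of the 10 called and the 1 at an unadjusted p under 0.05. By this test 6.85% of all genes were called, 19.8% had an unadjusted p under 0.05, and 14.5% had male and female samples that did not overlap. Clpp also had none in common, with log2 levels of 10.72 to 10.92 in males and 10.94 to 11.24 in females, and did not pass (-0.20 ± 0.13 SE, adjusted p = 0.433). Beside the shares over all genes, 1 gene called and 2 without overlap do not set the 10 genes apart. By the p of this test Oma1 was at rank 558 among the 11453 genes. Males and females lay on different arrays, so sex and array cannot be told apart.

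**Figure D3:**
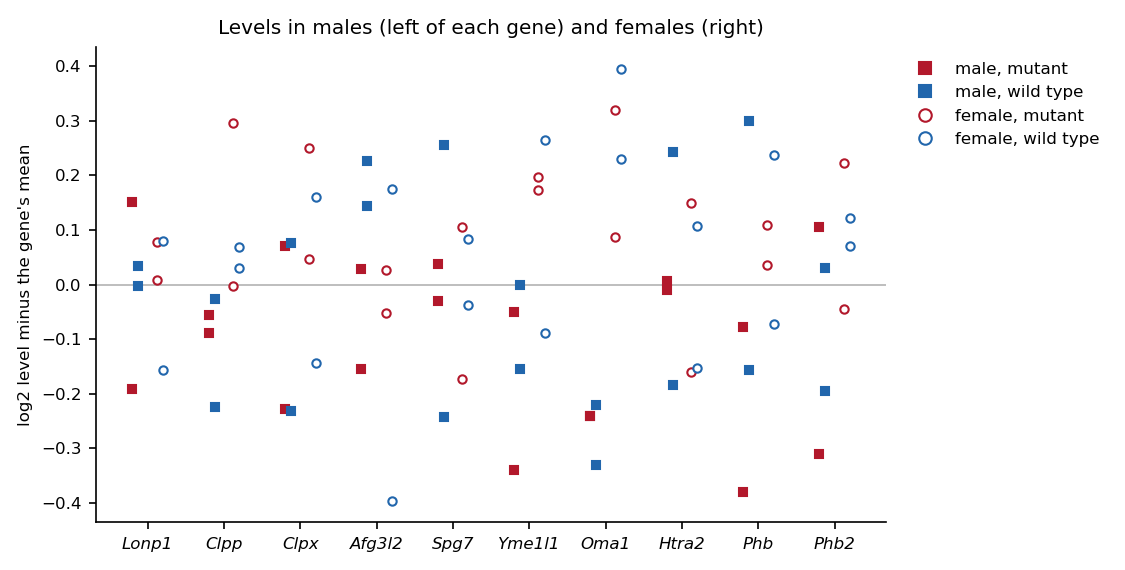
Log2 level of each gene minus its mean over the 8 samples, with males as filled squares to the left and females as open circles to the right, mutants in red and wild types in blue. The 4 male values of Oma1 all lie below the 4 female values, and for the other genes except Clpp the sexes overlap.

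Genes that work with these proteases and prohibitins were taken from 6 lists, and none of their members changed by limma with loess (0 higher and 0 lower in each list, 3 genes at an unadjusted p under 0.05). Over all genes tested 0.0175% were called and 5.87% had an unadjusted p under 0.05, so these counts do not set the lists apart. Of the 23 named from these lists, 20 moved by over 1.5 times in size or turned in sign under at least 1 of 12 alternatives, and Hscb, Sdhaf1 and Atf5 did not. Other mitochondrial proteases and peptidases had 13 of 14 genes tested, 9 higher and 4 lower, with a median change of 0.020 against 0.012 over all genes. The members with the smallest p were Nln, a peptidase, at 0.17 ± 0.096, Parl, the rhomboid protease of the inner membrane, at 0.098 ± 0.067, and Usp30, a deubiquitinase of the outer membrane that opposes mitophagy, at -0.090 ± 0.069 (SE). Afg3l1, a paralogue that in mice also joins the matrix-facing AAA protease, was at 0.013 ± 0.066, with ratios of 0.045, -0.0023, 0.016 and -0.0083 on arrays 1 to 4.

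Regulators and partners had 9 of 10 genes tested, 4 higher and 5 lower, with a median of -0.023. Stoml2, which binds prohibitins and assembles YME1L1 with PARL, was at 0.049 ± 0.070 (SE). Maip1, which binds the matrix-facing AAA protease, was at 0.071 ± 0.075 and Ghitm, a binding partner of AFG3L2, at -0.031 ± 0.086, a sign that turned under 4 settings. Xiap, a caspase inhibitor that HTRA2 antagonises, was at -0.15 ± 0.073, and Dnajc19, which binds prohibitins, at -0.076 ± 0.075, or -0.25 as the mean over its tested probes. The largest of these changes in size was that of Xiap, with a limma adjusted p of 0.707.

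Chaperones and co-chaperones had 10 of 10 genes tested, 6 higher and 4 lower, with a median of 0.014. Hscb, the co-chaperone of iron-sulfur cluster transfer, had log2 levels of 11.04, 10.87, 10.76 and 10.91 in mutants 1 to 4, against 11.35, 11.48, 11.58 and 11.33 in wild types 1 to 4. All 4 mutants were below all 4 wild types, where 1.21% of all genes had groups that did not overlap. The change of -0.54 ± 0.11 (SE) did not pass over all genes (limma adjusted p = 0.707). Hscb lies on chromosome 5 beside Pus1, with 1 protein-coding gene between them, and the 10 proteases and prohibitins lie on other chromosomes. Whether that position bears on the level of Hscb was not tested. Dnaja3, a DnaJ co-chaperone, was at -0.15 ± 0.082, and Clpb, the disaggregase of the intermembrane space, at 0.11 ± 0.071.

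Known substrates had 16 of 16 genes tested, 8 higher and 8 lower, with a median of -0.0080. Opa1, cut by OMA1 and YME1L1, was at -0.10 ± 0.068 with ratios of -0.039, -0.11, -0.16 and -0.085 on arrays 1 to 4. Dele1, cut by OMA1 under stress, was at -0.060 ± 0.065 (SE), also lower on 4 of 4 arrays. Neither passed the test, with limma adjusted p of 0.735 and 0.832. The members with the smallest p were Alas2, the erythroid heme synthesis enzyme, at 0.89 ± 0.32, Sdhaf1, an assembly factor of succinate dehydrogenase, at -0.16 ± 0.070, and Alas1, a LONP1 substrate, at -0.16 ± 0.098. Alas2 is also on the erythroid list described above and differed between the sexes, with a change of 0.19 in males and 1.60 in females (limma adjusted p = 0.00338). With median centring in place of loess its change was 0.90 and passed (limma adjusted p = 2.4e-06). That setting gave the same SE of 0.16 to every gene printed here, so the spread of Alas2 over its own arrays did not enter.

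Genes of cristae and cardiolipin, the lipid that prohibitin rings help to organise, had 11 of 11 genes tested, 4 higher and 7 lower, with a median of -0.010. Chchd6 and Micos13, subunits of the cristae junction complex, were at 0.16 ± 0.092 and -0.12 ± 0.067, and Pgs1, an enzyme of cardiolipin synthesis, at -0.11 ± 0.078 (SE). Stress transcription factors and their upstream kinase had 6 of 6 genes tested, 4 higher and 2 lower, with a median of 0.092. Atf5, a factor tied to the mitochondrial unfolded protein response, was at 0.53 ± 0.074 (SE, limma adjusted p = 0.546) with ratios of 0.0039, 0.95, 0.23 and 0.94 on arrays 1 to 4. With median centring in place of loess Atf5 was at 0.56 and passed (limma adjusted p = 0.0173). For Atf5 too this rests on the SE of 0.16 that the setting gave to every gene printed here. Its ratios were high on the 2 arrays with the mutant in Cy3, a gap that the dye term takes up. Cebpb was at -0.21 ± 0.11 and Trib3, a target of the stress response, at 0.20 ± 0.10. Trib3 was at 0.45 with the scanner's ratio or the authors' deposited table and at 0.071 without pair 3, and passed in none of these.

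**Figure D4:**
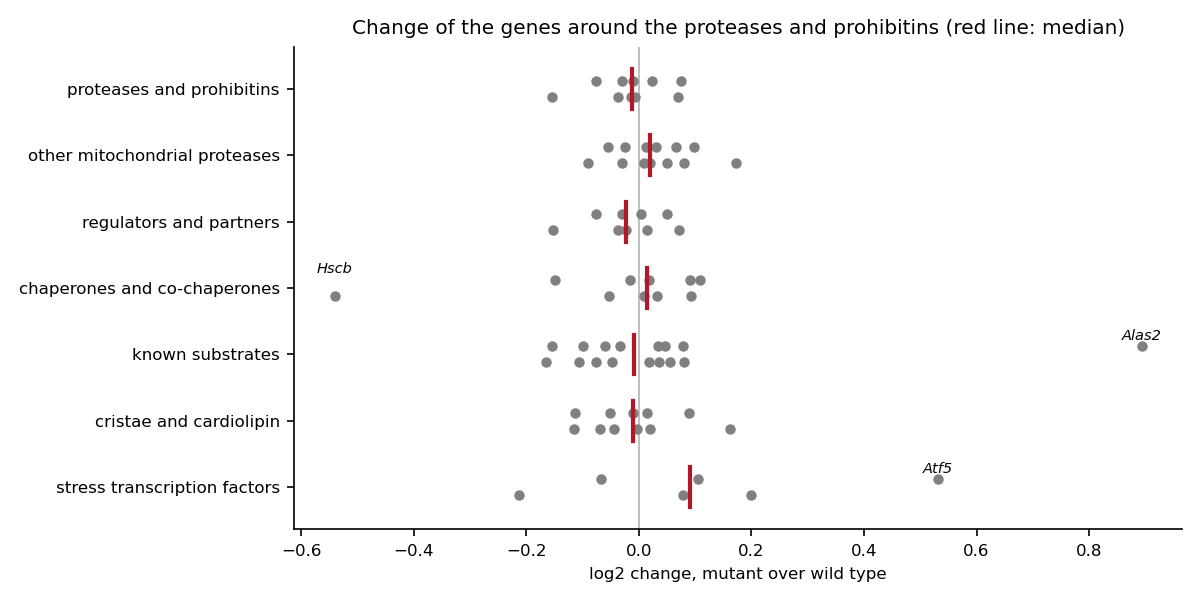
Log2 change of mutant over wild type for the 10 proteases and prohibitins and for the genes of 6 related lists, 1 grey point per gene, with the list's median as a red line. Hscb at -0.54, Atf5 at 0.53 and Alas2 at 0.89 lie apart, and none of the genes passed the test over all genes with loess. Atf5 and Alas2 passed with median centring, which gave every gene printed here the same SE.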

How the data were processed

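RNA of 8 muscles was measured on 4 two-colour Agilent arrays. The deposited scanner files hold median spot and local background intensity, made with Agilent Feature Extraction 10.7.3.1, which the submitters' processing notes name. Processed intensity and its log10 ratio (Cy5 over Cy3), and flags of 0 or 1, come from the same program per the file headers. The values show a log2 scale in the table that the authors deposited. Its mutant minus wild type differences correlated with the scanner ratio at r = 0.991 to 0.998 over the arrays, with slopes of 0.961 to 1.04. Its probes have a median of 0 across samples. Its column medians were -0.0016, 0.0066, 0.0045 and 0.019 for mutants 1 to 4 and -0.035, -0.062, 0.013 and 0.0036 for wild types 1 to 4. Its making is not given in the sources used.

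In R 4.3.3 with limma 3.58.1, intensity was corrected by normexp (offset 50), then loess was fitted array by array, with control and outlier spots at weight 0. Levels are per channel after Aquantile normalization. Probes were named through RefSeq accessions (27656 of 55681 matched 1 gene, GRCm38.p6 table, used for names and neighbours). Probes with at least 50% of spots well above background in all 4 samples of a genotype were kept (21152, of which 6 lacked a value), and each gene was represented by its brightest probe. The fit used lmFit and eBayes on mutant over wild type ratios with a dye term, and Benjamini-Hochberg adjustment over all 11453 genes, or all 21146 probes, at 0.05. Pairing comes from the array, and the labels give both mice of an array 1 individual number. As a check, paired samples deviated together from their genotype's mean, with r of 0.38, 0.25, 0.12 and 0.50. Precision is limited by how many arrays there are. Fits were tested on simulated data. The members, lists, tests and the rule for named genes (every member and probe; per list the called genes, otherwise up to 3 of smallest p, plus 7 direct partners or substrates) were chosen with earlier results of these data known, and the motifs after the promoters were seen. Alternatives covered background, normalization, filter, dye term, pairing, value table, probe choice and each pair left out.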

Additional observations from a re-analysis of the deposited data

Results flagged for a closer look

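Of 39 groups of 4 values checked, 1 had a sample far from the other 3, where chance flags about 1 in 20. Afg3l2 in wild type 4 was at a log2 level of 10.92, against 11.46 to 11.54 in wild types 1 to 3, and the gap was 0.868 of the group's range. The sample's mutant partner on array 4 was at 11.26, and the change without that pair is given above.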

How the results depend on the processing

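None of the 10 genes or 13 probes passed under any of the alternatives run (limma, 0 of 120 gene values, with at most 1 gene at an unadjusted p under 0.05, which was Phb at -0.27 without pair 4, adjusted p = 0.468), and no sex difference in the change passed under its 4. With no replicate block the count of proteases and prohibitins changed stayed 0, and that of all genes was 3 against 2 with pairing by array. The count of all genes changed was 0 with the scanner's own ratio or the authors' value table (limma, with 782 and 724 genes past an unadjusted 0.05), 267 with median centring (Atf5 and Alas2 among them, with 1 SE of 0.16 for every gene printed here), 1 with no dye term and 0 to 0 with a pair left out (302 to 1157 past an unadjusted 0.05). The cause was not tested. Changes this close to 0 turned in sign. With the scanner's ratio Yme1l1 was 0.020, Oma1 0.023, Htra2 0.0026 and Ghitm 0.018. With the authors' value table Spg7 was 0.054, Yme1l1 0.031, Oma1 0.030, Htra2 0.012, Phb2 0.021 and Ghitm 0.036. With median centring Htra2 was 0.024 and Phb2 0.010. With a pair left out the ranges were -0.034 to 0.079 for Lonp1, -0.21 to 0.060 for Afg3l2, -0.077 to 0.018 for Spg7, -0.095 to 0.073 for Yme1l1, -0.11 to 0.035 for Oma1, -0.076 to 0.063 for Htra2, -0.034 to 0.0054 for Phb2 and -0.098 to 0.036 for Ghitm. The median of the 10 genes ran from -0.035 to 0.061 with a pair left out.

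For male minus female levels, alternatives were added after seeing the data. The genes called were 6 of the 10 with no quantile step between arrays, where 4226 of all genes were called against 784 with it and the median of all genes was -0.29 against -0.053. They were 0 in mutants or wild types alone (limma, 1 gene each at an unadjusted p under 0.05), where 117 and 192 of all genes were called. Relative to that median Oma1 was at -0.46 in both scalings. With no quantile step Afg3l2 was -0.19, Spg7 -0.29 and Htra2 -0.29. In mutants alone Afg3l2 was -0.051, and in wild types alone Spg7 was -0.017 and Lonp1 0.055. All 13 probes were well above background in 8 of 8 samples, and the fit rests on 4 arrays.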
